A study of Mus musculus with 8 samples.

Results

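The hemidesmosome and anchoring genes are 9 genes that hold basal keratinocytes to the skin's basement membrane: Itga6, Itgb4, Cd151, Col17a1, Dst, Plec, Lama3, Lamb3 and Col7a1. They were chosen by name, for their place in that structure, from the 23146 genes with counts, and all 9 passed the filter on low counts that left 16342 genes for testing. Their RNA was measured in 8 libraries of total RNA from the epidermis of mouse embryos, 2 libraries in each of 4 groups: knockout at E15.5, knockout at E17.5, control at E15.5 and control at E17.5, where E stands for embryonic day. Knockout embryos carried floxed alleles of Nir (the gene Noc2l) and Cre recombinase driven by the Krt14 promoter, which is active in basal keratinocytes. Control embryos had floxed Nir alleles, and the labels do not say whether they also carried Cre. The epidermis had been taken off the dermis before RNA extraction. The libraries hold RNA of the whole sheet, and markers of dermal fibroblasts and skeletal muscle were counted in each of them. The labels do not say whether a library came from 1 embryo or several.

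Hemidesmosomes are plaques at the base of basal keratinocytes. Inside the cell, plectin and the epithelial form of dystonin (BPAG1e) tie keratin filaments to the plaque. Integrin alpha-6 beta-4, collagen XVII and the tetraspanin Cd151 cross or sit in the membrane, and the integrin binds laminin-332 outside the cell, to which anchoring fibrils of collagen VII attach the dermis. Inherited loss of several of these proteins makes the skin blister in mice and people.

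DNA upstream of the start site is shown for 4 of the 9 genes, to set side by side the genes with the steepest fall (Col17a1, Lamb3), a gene with a smaller fall (Col7a1) and a gene with no called change (Cd151). The RefSeq promoter table (build GRCm38.p6) held windows for these 4 genes and Dst. It held 2 windows each for Lamb3 and Cd151, of which only the first listed was searched and is shown. Itga6, Itgb4, Plec and Lama3 are named only. Each window runs 5′ to 3′ on the gene's own strand, stops before the bases of the counted transcript, and is in lower case with motif matches in capitals. The Col17a1 and Lamb3 windows adjoin the counted transcript. Those of Col7a1 and Cd151 end short of its start, at 108953745 and 141467393.
Col17a1, chr19:47692095-47692292, minus strand: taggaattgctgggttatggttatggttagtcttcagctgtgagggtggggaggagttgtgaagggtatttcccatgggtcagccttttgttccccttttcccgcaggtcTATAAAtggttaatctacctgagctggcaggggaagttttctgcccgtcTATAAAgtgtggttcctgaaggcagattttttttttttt
Lamb3, chr1:193301744-193301992, plus strand: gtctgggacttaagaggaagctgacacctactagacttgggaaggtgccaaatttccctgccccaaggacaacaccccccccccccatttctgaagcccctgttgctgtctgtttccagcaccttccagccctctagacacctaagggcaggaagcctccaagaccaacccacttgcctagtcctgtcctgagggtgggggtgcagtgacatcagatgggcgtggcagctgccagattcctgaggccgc
Col7a1, chr9:108953336-108953585, plus strand: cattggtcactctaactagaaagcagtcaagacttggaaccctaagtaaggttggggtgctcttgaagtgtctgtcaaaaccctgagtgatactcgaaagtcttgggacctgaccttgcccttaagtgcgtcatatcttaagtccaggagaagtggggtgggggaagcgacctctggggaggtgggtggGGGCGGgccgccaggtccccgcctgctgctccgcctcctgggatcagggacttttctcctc
Cd151, chr7:141467112-141467361, plus strand: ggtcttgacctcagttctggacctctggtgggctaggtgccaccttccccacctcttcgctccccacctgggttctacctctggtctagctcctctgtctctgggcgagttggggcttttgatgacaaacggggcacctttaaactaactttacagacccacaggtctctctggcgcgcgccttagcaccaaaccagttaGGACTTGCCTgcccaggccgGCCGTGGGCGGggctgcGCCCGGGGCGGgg

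The motifs searched on both strands were AP-1 (TGANTCA), Sp1 (GGGCGG), AP-2 (GCCNNNGGC), the TATA box (TATAAA) and the p53 family decamer (by name), 1 of the pair that makes up a response element. They were chosen after the counts had been seen. The Col17a1 window of 198 bases (45.5% G or C) held 2 TATA boxes, a motif present in 9.08% of the 32851 RefSeq windows over the same stretch. The Col7a1 window of 250 bases (56.4% G or C) held 1 Sp1 match, as did 32.7% of windows. The Cd151 window of 250 bases (62.4% G or C) held 2 Sp1 matches, each overlapping 1 of its 2 AP-2 matches (AP-2 was found in 13.7% of windows), and 1 p53 family decamer (7.13% of windows). None of the 5 motifs was found in the Lamb3 window of 249 bases (58.6% G or C). A match is a string of letters, not a binding site, and a window without one says nothing of the factor.

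Counts in named genes summed to 25226357 to 28895657 per library, and the Pearson correlation between the 2 libraries of a group was 0.9856 to 0.9886 (on log2 values, across genes, which are not independent). Noc2l itself had 95.6 and 91.6 counts per 1000000 counts (CPM, on library sizes after trimmed-mean scaling) in E15.5 knockout libraries and 106.7 and 97.4 CPM in E15.5 control libraries, a difference that did not pass the test (-0.12 ± 0.10 on the log2 scale, adjusted p = 0.33). At E17.5 it had 85.4 and 86.9 CPM in knockout and 105.5 and 120.6 CPM in control libraries (-0.39 ± 0.10, adjusted p = 0.0062), a call lost without control replicate 2 (adjusted p = 0.051). The sources used here do not say which exons were floxed, so a total over the gene does not check the deletion.

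Markers of other cell types moved with the genotype. Over all genes tested, 23.2% were higher and 22.3% lower at E15.5, and 26.7% each way at E17.5, by the test described below. Basal keratinocyte markers (5 genes, Krt5, Krt14, Krt15, Trp63 and Cdh3) summed to 1804 to 1869 CPM in E15.5 knockout libraries against 6415 to 6859 CPM in control libraries, and to 974.3 to 1035 CPM against 6998 to 7097 CPM at E17.5, with 5 of 5 lower at both stages. Dermal fibroblast markers (10 genes) summed to 77568 to 96048 CPM in knockout and 31357 to 33343 CPM in control libraries at E15.5 (10 of 10 higher), and to 98347 to 103948 CPM against 27205 to 31432 CPM at E17.5 (9 of 10 higher). Suprabasal keratinocyte markers (8 genes, 8 lower at each stage) summed to 6166 to 6430 CPM in E15.5 knockout and 87886 to 93021 CPM in control libraries, and to 1175 to 1345 CPM against 43039 to 56434 CPM at E17.5. Periderm markers (5 genes, keratins of the embryo's outermost layer; 4 higher and 1 lower at each stage) summed to 2160 to 2210 CPM in knockout and 540.4 to 618.1 CPM in control libraries at E15.5 and to 894.9 to 1141 CPM against 704.5 to 827.6 CPM at E17.5. Myeloid markers (6 of 7 in the files, 6 higher at each stage) summed to 396.5 to 402.3 CPM in knockout and 184.0 to 185.2 CPM in control libraries at E15.5 and to 583.4 to 662.9 CPM against 191.1 to 201.7 CPM at E17.5. Melanocyte markers (5 genes; 5 higher at E15.5 and 1 at E17.5) summed to 288.9 to 395.8 CPM in knockout and 154.3 to 164.2 CPM in control libraries at E15.5 and to 321.6 to 348.6 CPM against 254.8 to 265.0 CPM at E17.5. Erythroid markers (5 genes; 4 higher at E15.5 and 3 at E17.5) summed to 501.5 to 907.0 CPM in knockout and 78.6 to 132.8 CPM in control libraries at E15.5 and to 338.6 to 403.2 CPM against 31.5 to 34.4 CPM at E17.5. No marker of these lists was at 0 in any group. In a sheet measured whole, fewer basal cells, less RNA per basal cell and more RNA from other tissue cannot be told apart. The part of these lists in the results below was not tested.

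Across the 9 genes, 6 fell in knockout epidermis at E15.5 and at E17.5: Itga6, Itgb4, Col17a1, Lama3, Lamb3 and Col7a1. None rose at E15.5, and Plec and Dst (counted over its long forms) rose at E17.5. A gene was called when its adjusted p, from edgeR's quasi-likelihood test over all 16342 genes, was under 0.05. The background was high, because 22.3% of all genes were called lower and 23.2% higher at E15.5, and 26.7% lower and 26.7% higher at E17.5. With library totals as the only scaling, the E17.5 calls over all genes split into 3295 higher and 6284 lower in place of 4371 and 4364, and the median of all genes moved to -0.23. The median log2 fold change of the 9 genes was -1.05 at E15.5 and -1.04 at E17.5, beside -0.00 and -0.02 over all genes tested. The 9 genes ran from -3.70 to 0.37 at E15.5, where the middle 80% of all genes lay between -1.05 and 1.04, and from -3.46 to 0.97 at E17.5. At an unadjusted p under 0.05, Plec was the 1 gene of the 9 higher at E15.5, and DESeq2 called 1 higher there where limma-voom called 0.

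**Figure D1:**
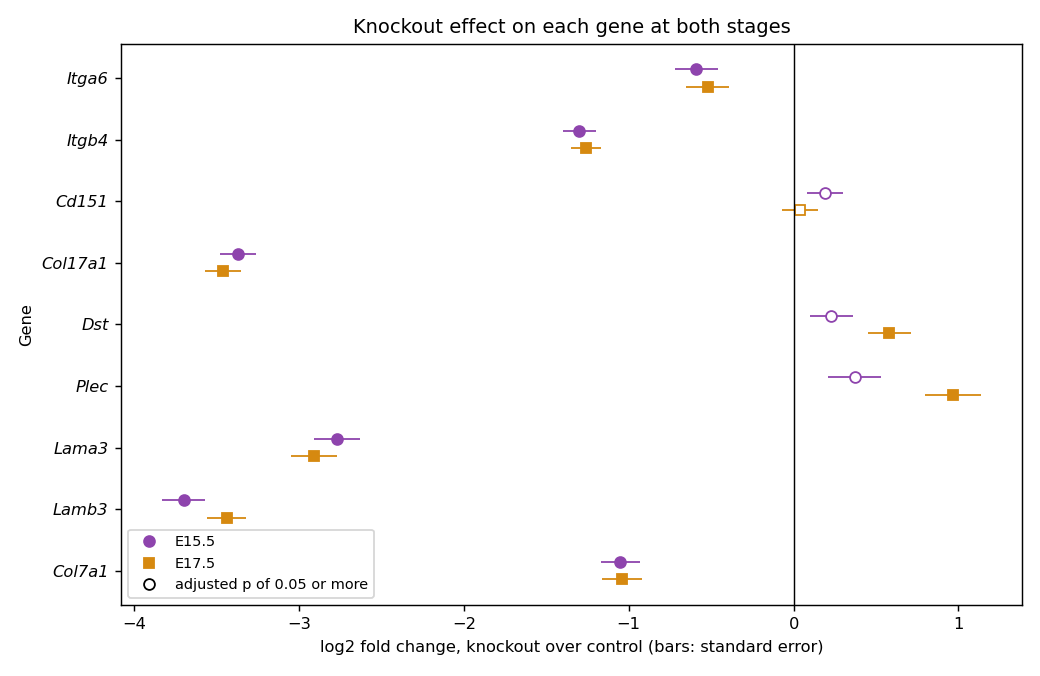
Log2 fold change of knockout over control (x axis) for the 9 genes (y axis) at E15.5 (circles) and E17.5 (squares), with bars of 1 standard error; open symbols missed an adjusted p of 0.05. Lamb3 and Col17a1 lie farthest to the left at both stages, near -3.70 and -3.37 at E15.5, while Dst and Plec lie to the right of 0.

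The integrin chains fell by different amounts. Itga6 encodes the alpha-6 chain, which also pairs with beta-1. At E15.5 it had 72.2 and 73.4 CPM in knockout libraries and 108.5 and 110.3 CPM in control libraries, so the groups did not overlap. Groups that do not overlap, with knockout below control, were common, at 37.3% of all genes at E15.5 and 39.7% at E17.5. The fitted difference was -0.59 ± 0.13 (log2, SE; adjusted p = 0.0032), with knockout libraries at 66.5% of control. At E17.5, Itga6 had 76.2 and 63.5 CPM in knockout and 112.5 and 87.1 CPM in control libraries, again with no overlap (-0.52 ± 0.13, adjusted p = 0.0057). The E17.5 call was lost without control replicate 1 (-0.32, adjusted p = 0.061) and without knockout replicate 2 (-0.41, adjusted p = 0.059).

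Itgb4 encodes the beta-4 chain, whose long cytoplasmic tail binds plectin and which pairs with alpha-6 alone. It had 54.7 and 59.6 CPM in E15.5 knockout libraries and 144.3 and 137.0 CPM in E15.5 control libraries. At E17.5 the values were 57.6 and 53.7 CPM in knockout and 135.2 and 132.1 CPM in control libraries. All 4 knockout libraries lay below all 4 control libraries, at 40.6% of control at E15.5 (-1.30 ± 0.10, adjusted p = 1.1e-06) and 41.6% at E17.5 (-1.26 ± 0.09, adjusted p = 8.5e-07). An opposite-strand gene, B230344G16Rik, overlaps 534 bases (8.669%) of the counted Itgb4 transcript, and the strand setting of the counting is not given in the sources used here, so reads in those bases could come from either gene.

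Per kilobase of transcript, Itgb4 stood at 0.530 and 0.568 of Itga6 in the E15.5 knockout libraries and at 0.930 and 0.868 in the E15.5 control libraries. At E17.5 the ratio was 0.529 and 0.592 in knockout and 0.841 and 1.06 in control libraries. The ratio was lower in each of the 4 knockout libraries than in any control library. This ratio was chosen after the counts had been seen and was not tested.

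Cd151 encodes a tetraspanin that binds alpha-6 and alpha-3 integrins. It had 70.1 and 65.1 CPM in E15.5 knockout libraries and 62.3 and 56.6 CPM in control libraries (0.19 ± 0.11, adjusted p = 0.19). At E17.5 the groups overlapped, with 81.2 and 84.0 CPM in knockout and 73.5 and 86.6 CPM in control libraries (0.04 ± 0.11, adjusted p = 0.75). The sign at E17.5 turned to -0.17 with library totals as the only scaling and to -0.07 without control replicate 1, so Cd151 had no settled direction at that stage. The opposite-strand gene Gm10575 overlaps 192 bases (10.295%) of its counted transcript. Relative to its integrin partner and per kilobase, Cd151 stood at 2.24 and 2.05 times Itga6 in E15.5 knockout libraries against 1.33 and 1.19 in control libraries, and at 2.46 and 3.06 against 1.51 and 2.30 at E17.5.

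**Figure D2:**
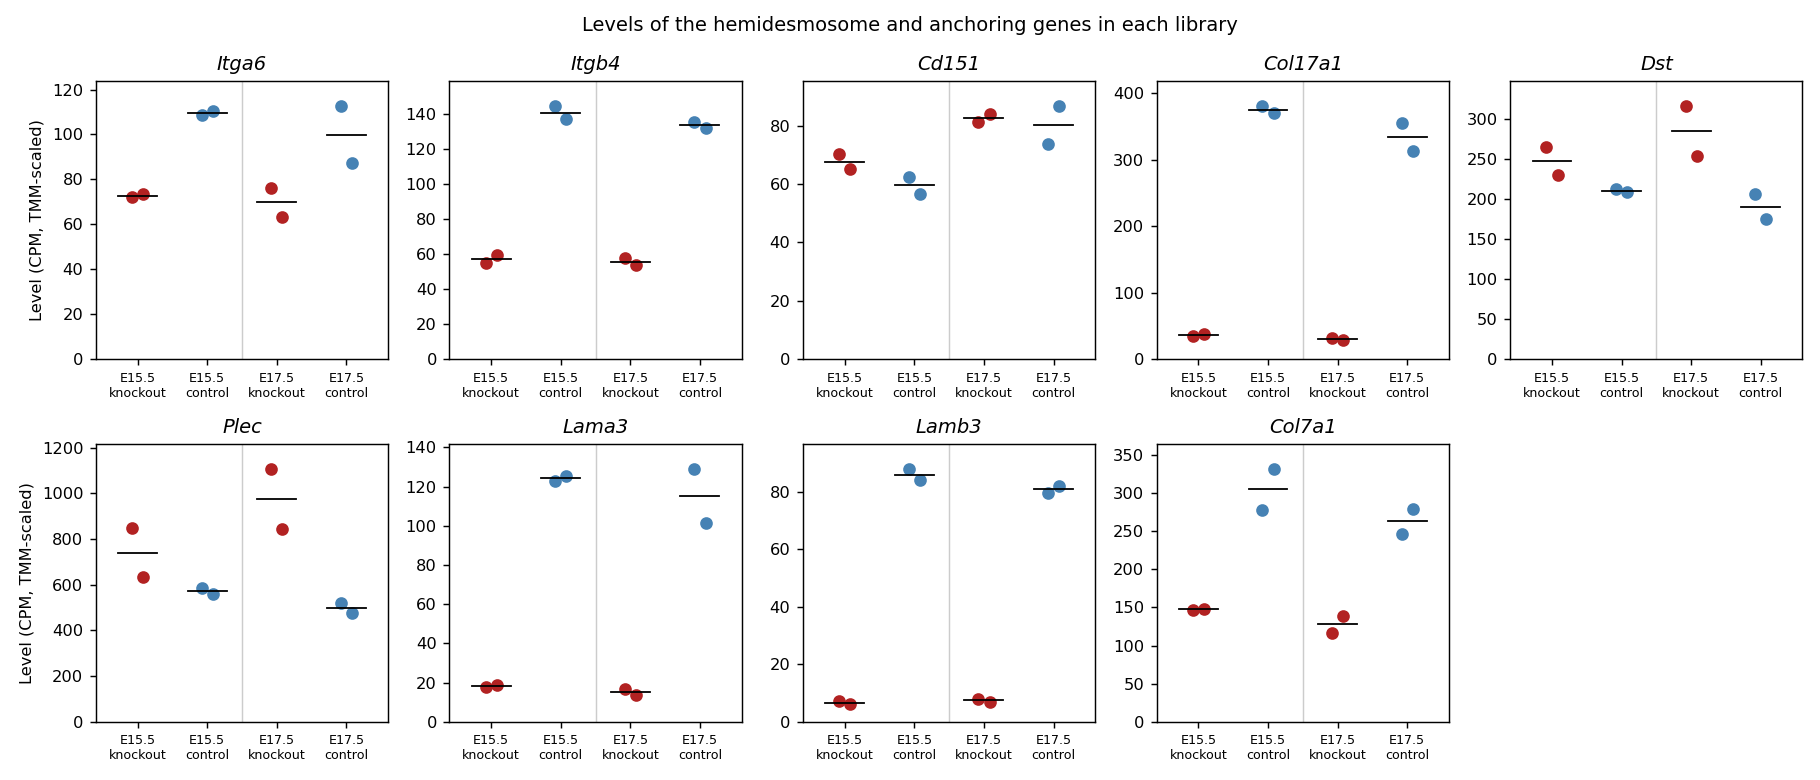
Level of each gene in each library (y axis, CPM on scaled library sizes) by stage and genotype (x axis), with 1 point per library, red for knockout and blue for control, and a line at the mean of the 2. Knockout and control points do not overlap for any gene at E15.5, while at E17.5 those of Cd151 do. Such groups were common over all genes, with knockout wholly higher in 37.1% and wholly lower in 37.3% at E15.5. At E17.5 the shares were 38.4% and 39.7%.

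Col17a1 encodes collagen XVII (BP180), a transmembrane collagen that reaches from the plaque to the basement membrane, and it was among the most strongly reduced of the 9 genes. It had 35.2 and 37.3 CPM in E15.5 knockout libraries and 380.5 and 370.2 CPM in E15.5 control libraries. The E17.5 values were 31.7 and 29.2 CPM in knockout libraries and 355.0 and 312.9 CPM in control libraries. The highest knockout value was thus 37.3 CPM and the lowest control value 312.9 CPM. The fitted difference was -3.37 ± 0.11 at E15.5 (adjusted p = 5.3e-09), a 10.3-fold lower mean, and -3.46 ± 0.11 at E17.5 (adjusted p = 2.4e-09), an 11.0-fold lower mean. Of the 16342 genes tested, 1.85% had a lower fold change at E15.5 and 3.04% at E17.5. Col17a1 is counted over 53 exons on the minus strand of chr19:47646344-47692094 (mm10), directly downstream of the window printed above.

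Col17a1 also changed place relative to the integrin. Per kilobase it stood at 0.724 and 0.705 times Itgb4 in the E15.5 knockout libraries, against 2.97 and 3.04 in the control libraries. At E17.5 the ratios were 0.618 and 0.612 in knockout against 2.95 and 2.66 in control libraries. The counts of Col17a1 were therefore reduced further than those of Itgb4 in each knockout library, and in controls it exceeded Itgb4 in each library.

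Plakins link the plaque to keratin filaments inside the cell. Neither plakin gene, Plec or Dst (counted over its long forms), was called lower at either stage. The plaque form of dystonin, BPAG1e, had no row of its own. Plec, which encodes plectin, had 847.1 and 631.8 CPM in E15.5 knockout libraries and 587.9 and 557.7 CPM in control libraries. The groups did not overlap, but the difference missed the threshold (0.37 ± 0.16, adjusted p = 0.088). It passed with DESeq2 (adjusted p = 0.043) and without knockout replicate 2 (0.56, adjusted p = 0.027), and was 0.14 without knockout replicate 1. At E17.5 Plec had 1107 and 845.3 CPM in knockout and 521.2 and 474.3 CPM in control libraries, a rise of 0.97 ± 0.17 (adjusted p = 0.00045) that passed without any single library (0.74 to 1.13).

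Dst, which encodes dystonin and its epithelial form BPAG1e (BP230), had 264.7 and 229.3 CPM in E15.5 knockout libraries and 211.9 and 208.2 CPM in control libraries (0.23 ± 0.13, adjusted p = 0.17). Its E17.5 values were 315.3 and 253.5 CPM in knockout and 205.4 and 175.2 CPM in control libraries, with no overlap. The rise of 0.58 ± 0.13 at E17.5 passed the test (adjusted p = 0.0032) but was lost without knockout replicate 1 (0.39, adjusted p = 0.06). Groups that do not overlap, with knockout above control, were common, at 37.1% of all genes at E15.5 and 38.4% at E17.5. Dst overlaps opposite-strand genes over few of its bases, 198 (0.852%) with A930005N03Rik and 383 (1.647%) with Gm26788.

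The counted Dst transcript is not the epithelial one. NM_134448, with 98 exons and 23251 bases at chr1:34011825-34308661 (plus strand, mm10), had the most reads of the 2 Dst rows. The epithelial transcript NM_010081 (24 exons, 8788 bases) had no row among the counts, so its level could not be taken. It shares 3148 bases (35.82%) with the counted row, and its last exon of 2770 bases lies wholly outside that row. The Dst values are therefore those of the long forms, with a share from the exons in common, and give no level for BPAG1e.

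The 2 Dst rows differ by exons that NM_134448 holds and NM_133833 lacks, 6051 bases in all. NM_134448 had 379 and 373 more reads than NM_133833 in E15.5 knockout libraries and 199 and 131 more in control libraries. The excess at E17.5 was 561 and 377 more reads in knockout and 208 and 151 more in control libraries. These extra reads made up 5.30% to 6.50% of the NM_134448 row in knockout libraries and 2.42% to 3.67% in control libraries, with no overlap. The rows were compared after their counts had been seen, and the difference was not tested.

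Plectin's many isoforms differ in the first exon, and in keratinocytes plectin 1a is the main one of the hemidesmosome. The files held 15 Plec rows, which share nearly all of their bases and gave log2 fold changes of 0.36 to 0.37 at E15.5 and 0.96 at E17.5 for knockout over control. Reads that 1 row has over another, NM_201387, come from the first exons and were few. NM_201389 had 77 such reads in the E15.5 knockout libraries together and 33 in the control libraries, and 168 against 14 at E17.5. NM_201385 had 92 against 29 at E15.5 and 127 against 12 at E17.5. NM_011117 went the other way, with 15 in knockout against 33 in control libraries at E15.5 and 24 against 35 at E17.5. NM_201394, not drawn below, had 64 in knockout against 46 in control libraries at E15.5 and 65 against 35 at E17.5. As a share of its row, the NM_201394 excess overlapped between the genotypes at both stages. The Plec first exons were thus not all higher in knockout libraries, and the files do not tie these rows to named isoforms. These are differences of counts chosen after they had been seen, with no test, and at 12 to 168 reads a group they are imprecise.

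**Figure D3:**
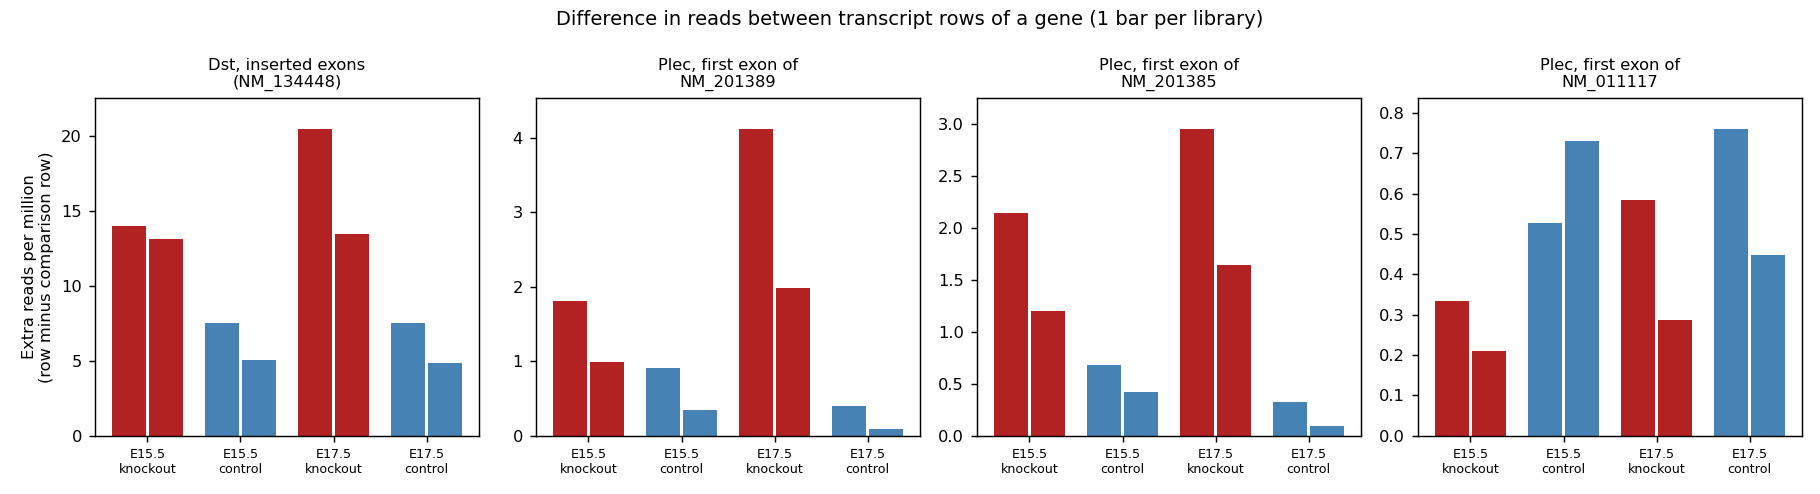
Reads that 1 transcript row has over another of the same gene, as CPM (y axis, on scaled library sizes), with 1 bar per library, red for knockout and blue for control; Dst NM_134448 is set against NM_133833, and the 3 Plec rows against NM_201387. For Dst, NM_201389 and NM_201385 the knockout bars are the taller at each stage, and for NM_011117 both E15.5 knockout bars (0.333 and 0.211) lie below both control bars (0.528 and 0.730), while the E17.5 bars overlap.

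Skeletal muscle, endothelium and Schwann cells also express plakins. Muscle markers (10 genes) summed to 21704 and 20391 CPM in E15.5 knockout and 15439 and 11679 CPM in control libraries, and to 42053 and 31648 CPM against 15950 and 14740 CPM at E17.5. Of these 10 genes, 8 rose at E15.5 and 10 at E17.5. In knockout libraries, the muscle sum, Plec and Dst were each higher in replicate 1 than in replicate 2 at both stages. That order of 2 libraries was not tested. At E15.5 it did not hold for each muscle gene. Knockout replicates 1 and 2 had 5497 and 5581 CPM of Acta1, but 1690 and 1630 CPM of Ckm. Endothelial markers (9 genes, 9 higher at each stage) summed to 956.3 to 958.6 CPM against 581.6 to 585.5 CPM at E15.5 and 940.5 to 965.3 CPM against 525.2 to 542.0 CPM at E17.5. Schwann cell markers (7 genes) summed to 143.3 to 145.0 CPM in knockout and 127.5 to 145.6 CPM in control libraries at E15.5 (4 rose and 1 fell), and to 127.2 to 138.4 CPM against 106.8 to 122.0 CPM at E17.5 (5 rose and 1 fell). No marker of these lists was at 0 in any group, and their part in the Plec and Dst values was not tested.

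Lama3 and Lamb3, which encode chains of laminin-332, the ligand of the integrin, both fell. Lama3, the alpha-3 chain, had 17.54 and 18.9 CPM in E15.5 knockout libraries and 122.8 and 125.6 CPM in control libraries (-2.77 ± 0.14, adjusted p = 6.7e-08). At E17.5 it had 16.9 and 13.7 CPM in knockout and 129.0 and 101.6 CPM in control libraries (-2.91 ± 0.14, adjusted p = 2.8e-08). No knockout library came near a control library, and the means were 14.7% and 13.3% of control. The short laminin alpha-3 transcript, NM_001347461, has 96.45% of its bases inside the counted row, so the row does not tell the long and short forms apart.

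Lamb3, the beta-3 chain, had the lowest fold change of the 9 genes at E15.5. It had 7.07 and 6.19 CPM in E15.5 knockout libraries (191 and 176 reads) and 88.0 and 84.0 CPM in control libraries. At E17.5, Lamb3 had 7.96 and 6.90 CPM in knockout (218 and 192 reads) and 79.7 and 82.1 CPM in control libraries. The difference was -3.70 ± 0.13 at E15.5 (adjusted p = 5.3e-09; 13.0-fold lower) and -3.44 ± 0.12 at E17.5 (adjusted p = 4.0e-09; 10.9-fold lower). Its fall at E17.5 stood beside that of Col17a1, within the standard errors of both.

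Per kilobase, Lamb3 stood at 1.05 and 0.852 times Lama3 in E15.5 knockout libraries and at 1.86 and 1.74 in control libraries. At E17.5 the ratio was 1.23 and 1.31 in knockout and 1.61 and 2.10 in control libraries. Knockout ratios were below the control ratios at each stage. Lama3 was divided by the 10548 bases of its counted row. The short form has 5551 bases, and the mix of the 2 forms was not measured, so the size of the ratio is uncertain. This comparison of Lamb3 with Lama3 was made after the counts had been seen, with no test of its own.

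Col7a1 encodes collagen VII, which forms the anchoring fibrils below the basement membrane and is made by keratinocytes and fibroblasts. It had 146.6 and 148.5 CPM in E15.5 knockout and 277.8 and 331.6 CPM in control libraries (-1.05 ± 0.12, adjusted p = 4.3e-05). At E17.5 it had 117.0 and 138.3 CPM in knockout and 247.0 and 278.6 CPM in control libraries (-1.04 ± 0.12, adjusted p = 3.3e-05). The groups did not overlap at either stage, and knockout means were 48.4% and 48.6% of control. The fibroblast markers given above were higher in the same knockout libraries. Mir711 shares 36 bases (0.391%) with the counted Col7a1 transcript, on the same strand.

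The order of the genes by level per kilobase of transcript differed between the genotypes. In E15.5 knockout libraries Plec led with 47.8 ± 9.85 CPM per kilobase (mean ± SD, n = 2), followed by Cd151 (36.3 ± 1.89), Itga6 (16.9 ± 0.193), Col7a1 (16.0 ± 0.145), Dst (10.6 ± 1.07), Itgb4 (9.27 ± 0.562) and Col17a1 (6.62 ± 0.275). Lama3 (1.73 ± 0.0904) and Lamb3 (1.63 ± 0.153) came last and overlapped each other. In E15.5 control libraries Col17a1 led with 68.5 ± 1.33 CPM per kilobase, ahead of Plec (37.1 ± 1.38), Col7a1 (33.1 ± 4.13), Cd151 (31.9 ± 2.16), Itga6 (25.4 ± 0.299), Itgb4 (22.8 ± 0.839), Lamb3 (21.2 ± 0.695), Lama3 (11.8 ± 0.188) and Dst (9.03 ± 0.113). Of the neighbours in that control order, Col7a1 overlapped Cd151. Col17a1 ranked 7 of 9 in knockout and 1 of 9 in control libraries at E15.5. The order rests on the lengths of the counted rows, 23251 bases for Dst and 10548 for Lama3. The other Dst row has 17212 bases. In control libraries, the 6051 bases it lacks held 2.42% to 3.67% of the reads of the counted row. The short Lama3 form has 5551 bases. The places of Dst and Lama3 therefore depend on the length used.

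At E17.5, on the same lengths, the ends of the order were much the same. Knockout libraries were led by Plec (63.2 ± 12.0 CPM per kilobase) and Cd151 (44.3 ± 1.07), with Col17a1 at 5.56 ± 0.315 and Lama3 last at 1.45 ± 0.211. Control libraries were led by Col17a1 (61.0 ± 5.43) and Cd151 (42.9 ± 4.95), with Dst last at 8.18 ± 0.918. Itga6 overlapped Col7a1, and Col7a1 overlapped Dst, in knockout libraries, while Itga6 overlapped Itgb4 in control libraries. Plec stood at 7.66 and 6.27 times Itgb4, its binding partner, in E17.5 knockout libraries against 1.54 and 1.43 in control libraries, and at 6.18 and 4.23 against 1.62 and 1.62 at E15.5.

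**Figure D4:**
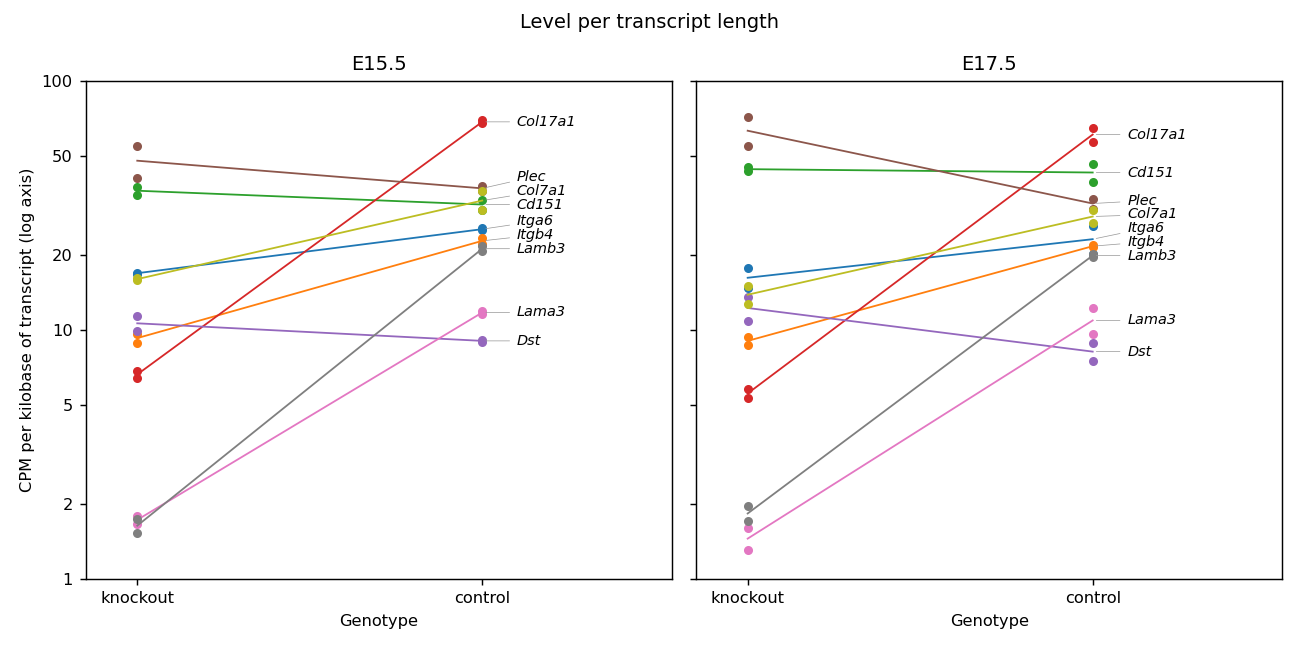
Level per kilobase of transcript (y axis, CPM per kilobase, log axis) in knockout (left) and control (right) at each stage, with 1 point per library and lines joining the group means of each gene. The steepest lines are those of Col17a1, Lamb3 and Lama3; in knockout, Lama3 and Lamb3 lie under 2 CPM per kilobase.

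Set against the keratins of basal cells, the 9 genes split. Keratin 14 pairs with keratin 5 in basal keratinocytes, and both fell in knockout epidermis, Krt14 at -1.91 ± 0.12 at E15.5 and -1.59 ± 0.12 at E17.5, and Krt5 at -1.82 ± 0.13 and -3.26 ± 0.14 (adjusted p of 1.0e-06 or less for all 4). Per 1000 Krt14 reads, Col17a1 had 83.3 and 92.6 reads in E15.5 knockout libraries and 230.5 and 254.6 in control libraries, and 62.2 and 54.7 against 234.7 and 192.4 at E17.5. Lamb3 had 16.7 and 15.4 reads per 1000 Krt14 reads in E15.5 knockout against 53.3 and 57.8 in control libraries, and 15.6 and 12.9 against 52.7 and 50.5 at E17.5. Lama3 had 41.5 and 46.9 against 74.4 and 86.4 at E15.5 and 33.1 and 25.7 against 85.3 and 62.5 at E17.5. These 3 genes were therefore lower in knockout libraries beside Krt14, although the basal markers Cdh3 and Trp63 fell further than Krt14 did (values below). Itgb4, in contrast, had 129.4 and 147.7 reads per 1000 Krt14 reads in E15.5 knockout against 87.4 and 94.2 in control libraries, and 113.2 and 100.7 against 89.4 and 81.2 at E17.5. Itga6 (171.0 and 182.0 against 65.7 and 75.9 at E15.5) and Col7a1 (347.0 and 368.2 against 168.3 and 228.0 at E15.5) also stood higher beside Krt14 in knockout libraries, as they did at E17.5.

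The choice of keratin matters at E17.5, where Krt5 fell further than Krt14. Per 1000 Krt5 reads, Col17a1 had 74.7 and 62.8 reads in E17.5 knockout libraries against 81.8 and 74.6 in control libraries, and Lamb3 had 18.8 and 14.8 against 18.4 and 19.6. Lama3, which was lower beside Krt14, had 39.8 and 29.5 reads per 1000 Krt5 reads in E17.5 knockout against 29.7 and 24.2 in control libraries, with the higher mean in knockout. The groups overlapped in all 3 genes. At E15.5 the 2 keratins gave the same order, with Col17a1 at 31.0 and 32.6 reads per 1000 Krt5 reads in knockout and 91.5 and 95.6 in control libraries. These ratios were added after the counts had been seen and carry no test. The Krt14 promoter also drives the Cre, and Krt14 is itself a gene that changed. Of the other basal markers, Cdh3 fell by -2.76 ± 0.12 at E15.5 and -4.00 ± 0.13 at E17.5. Trp63 fell by -3.90 to -3.49 at E15.5 and -4.53 to -4.18 at E17.5, on leaving out each library. At E17.5 both fell further than Col17a1 (-3.46), Lamb3 (-3.44) and Lama3 (-2.91). The split thus depends on the marker chosen, and no ratio to Cdh3 or Trp63 was taken.

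Few of the 9 genes passed a test between the stages. For the difference between the knockout effects at E17.5 and E15.5, edgeR called 0 of the 9 (1.88% of all genes were called higher and 2.47% lower, 4.35% in all), DESeq2 and limma-voom called 0, and 1, Plec, had an unadjusted p under 0.05 (0.60 ± 0.23, adjusted p = 0.19). The other 8 lay between -0.14 (Cd151 and Lama3) and 0.35 ± 0.19 (Dst). Within knockout epidermis, E17.5 against E15.5, edgeR, DESeq2 and limma-voom again called 0 of the 9 (6.19% of all genes were called higher and 6.91% lower, 13.1% in all), where 3 had an unadjusted p under 0.05: Plec (0.40 ± 0.16), Cd151 (0.29 ± 0.11) and Col17a1 (-0.25 ± 0.11).

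Within control epidermis, 1 of the 9 was called, where 3.15% of all genes were called higher at E17.5 and 7.70% lower. Cd151 had 73.5 and 86.6 CPM in E17.5 and 62.3 and 56.6 CPM in E15.5 control libraries (0.43 ± 0.11, adjusted p = 0.027). That call did not survive leaving out replicate 1 (adjusted p = 0.057) or replicate 2 (adjusted p = 0.21) of the E15.5 control, or replicate 2 of the E17.5 control (adjusted p = 0.22). The other 8 genes lay between -0.21 ± 0.12 (Col7a1) and -0.07 ± 0.09 (Itgb4), with no call. With library totals as the only scaling, the median of all genes moved to 0.19, and the calls over all genes split into 1486 higher and 762 lower in place of 515 and 1259.

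The rest of the basement membrane did not follow Lama3 and Lamb3. Of 16 genes listed for it, 9 rose and 3 fell in knockout epidermis at E15.5, and 11 rose and 4 fell at E17.5 (median log2 fold change 0.45 and 0.68, beside -0.00 and -0.02 over all genes). Over all genes, 23.2% were called higher and 22.3% lower at E15.5, and 26.7% each way at E17.5. The same shares stand beside the counts of the lists below. Those that fell included Lama5, the alpha-5 chain of laminin-511 made by epithelia, with 85.8 and 90.0 CPM in E15.5 knockout and 228.7 and 229.6 CPM in control libraries (-1.38 ± 0.11, adjusted p = 3.1e-06; -1.51 ± 0.12 at E17.5). Col4a6, a collagen IV chain, also fell (-1.50 ± 0.15 at E15.5 and -0.76 ± 0.14 at E17.5), as did Agrn, the gene of the proteoglycan agrin (-1.02 ± 0.11 and -0.69 ± 0.11). Hspg2, the gene of the basement membrane proteoglycan perlecan, rose, with 2146 and 1900 CPM in E17.5 knockout against 756.2 and 760.5 CPM in control libraries (1.42 ± 0.16, adjusted p = 2.2e-05; 0.84 ± 0.16 at E15.5). Nid1, the gene of nidogen-1, which links laminin to collagen IV, had 1253 and 1105 CPM in E17.5 knockout and 561.1 and 555.1 CPM in control libraries (1.08 ± 0.14, adjusted p = 5.3e-05; 0.93 ± 0.14 at E15.5). The fibroblast and endothelial markers given above, of cells that also make basement membrane, were higher in the same libraries.

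Of 8 laminin chain genes listed beside Lama3 and Lamb3 (4 of them also on the list above), 5 rose and 2 fell at each stage (median 0.46 at E15.5 and 0.63 at E17.5). Lamc3, the gamma-3 chain, had the lowest fold change of these, with 1.78 and 3.87 CPM in E15.5 knockout and 51.7 and 50.8 CPM in control libraries (-4.17 ± 0.25, adjusted p = 2.6e-07) and -5.50 ± 0.27 at E17.5. The 2 that fell at both stages were Lama5 and Lamc3. Lama4, the alpha-4 chain, found in blood vessels, had 458.9 and 439.8 CPM in E17.5 knockout and 186.2 and 187.0 CPM in control libraries (1.27 ± 0.11, adjusted p = 2.3e-06; 1.02 ± 0.11 at E15.5). The genes that rose were Lama2, Lama4, Lamb1, Lamb2 and Lamc1, of which Lamb2 lost its E15.5 call without any of 3 E15.5 libraries, all but knockout replicate 2 (0.16 to 0.35), and without either E17.5 knockout library (0.33).

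Adhesion genes that lie outside the hemidesmosome but at the same junction mostly fell. Of 8 listed (the Fraser complex genes Fras1, Frem1, Frem2 and Grip1, with Vwa2, Fermt1, Itga3 and Itgb1), 6 fell and 1 rose at E15.5, and 7 fell and 1 rose at E17.5 (median -1.70 and -1.66). Fermt1, which encodes kindlin-1, an activator of beta-1 integrins, had 1.89 and 2.08 CPM in E15.5 knockout and 32.8 and 34.4 CPM in control libraries (-4.08 ± 0.15, adjusted p = 8.2e-09; -3.49 ± 0.14 at E17.5). Vwa2, which encodes the Fraser complex partner AMACO, fell (-5.05 ± 0.30 at E15.5 and -5.38 ± 0.32 at E17.5). Itga3, the alpha-3 integrin that also binds laminin-332, had 11.9 and 13.3 CPM in E15.5 knockout and 65.6 and 68.3 CPM in control libraries (-2.41 ± 0.13, adjusted p = 9.4e-08). The gene that rose was Itgb1, the beta-1 chain made by most cell types (0.75 ± 0.11 and 0.86 ± 0.11).

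Enzymes and chaperones that make collagen VII or process laminin-332, listed together with the proteases Adam9, Adam10 and Adam17, mostly went the other way. Of 14 listed, 11 rose and 1 fell at E15.5, and 11 rose and 0 fell at E17.5 by edgeR, with 0 lower at an unadjusted p under 0.05 (median 0.74 and 0.86). P4ha2, a prolyl hydroxylase chain, had 262.4 and 248.2 CPM in E15.5 knockout and 95.2 and 92.7 CPM in control libraries (1.44 ± 0.11, adjusted p = 1.3e-06; 1.62 ± 0.11 at E17.5). P4ha1, its sister chain, rose by 1.18 ± 0.10 at E15.5 and 0.90 ± 0.10 at E17.5. The lysyl hydroxylase genes Plod1 (1.05 ± 0.10 and 1.27 ± 0.10) and Plod2 (1.29 ± 0.11 and 0.71 ± 0.11) rose as well, and so did Adam9, the gene of a membrane protease (0.74 ± 0.10 and 1.21 ± 0.10). The gene that fell at E15.5 was Tll1, a protease of the tolloid family, with 3.66 and 4.43 CPM in knockout and 6.23 and 5.91 CPM in control libraries (-0.58 ± 0.21, adjusted p = 0.04). Tll1 was named after its values were seen, and its call was lost with DESeq2 (adjusted p = 0.058), limma-voom (0.054) and a fit of the compared groups alone (0.057), and without any 1 of the 4 E15.5 libraries or E17.5 knockout replicate 1 (0.051). Prolyl and lysyl hydroxylases also serve other collagens, and the fibroblast marker Col1a1 had 35335 and 38643 CPM in E17.5 knockout against 8384 and 10055 CPM in control libraries.

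Of 6 other tetraspanins, the family of Cd151, 3 rose and 2 fell at E15.5 and 4 rose and 1 fell at E17.5 (median 0.32 and 0.51). Beside the shares over all genes given above, counts on a list this short say little about the family. Cd9, which is abundant in epithelia, fell (-1.24 ± 0.13 at E15.5 and -1.44 ± 0.13 at E17.5). Cd81 rose (0.78 ± 0.12 and 0.89 ± 0.12), as did Cd63, a tetraspanin of lysosomes (1.25 ± 0.20 and 0.81 ± 0.20), whose E17.5 call was lost without E17.5 control replicate 1 (0.56, adjusted p = 0.054). Tspan4 rose by 0.48 ± 0.17 at E15.5, a call lost without any 1 of the 4 E15.5 libraries, and by 0.75 ± 0.16 at E17.5.

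**Figure D5:**
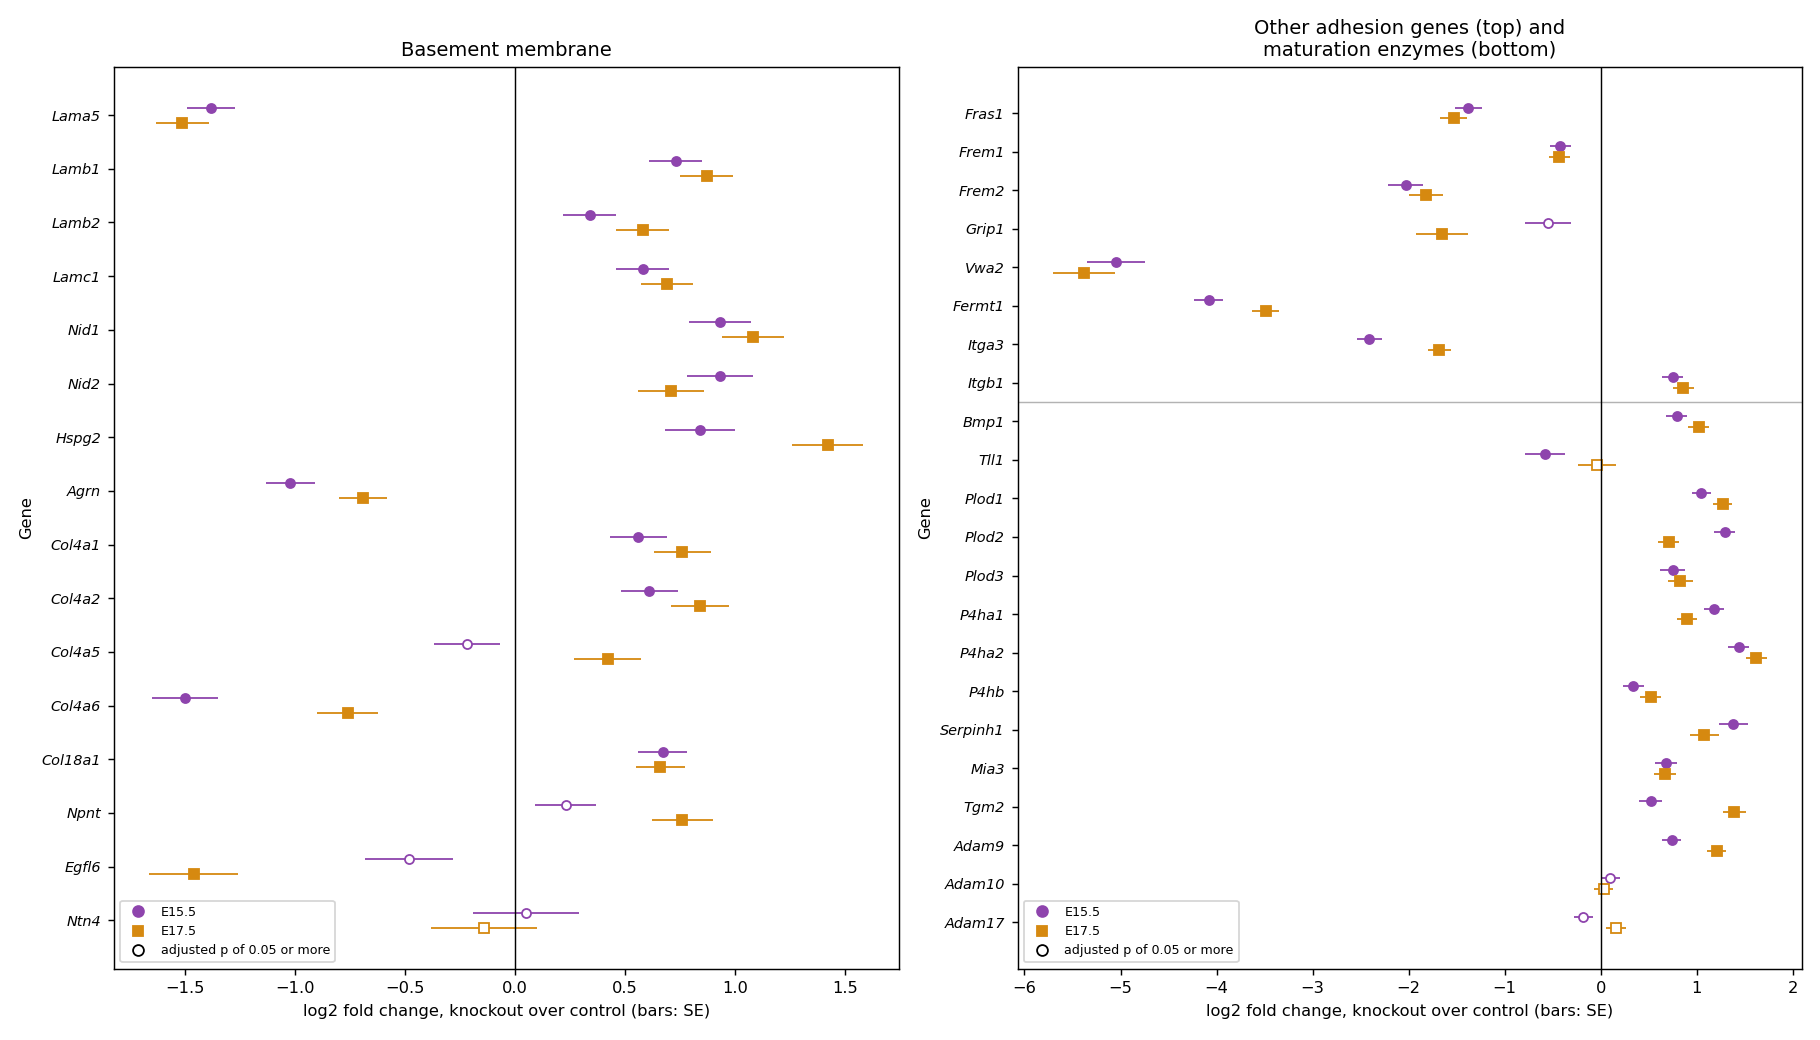
Log2 fold change of knockout over control (x axis, bars of 1 standard error) at E15.5 (circles) and E17.5 (squares) for the basement membrane genes (left) and for the other adhesion genes and the maturation enzymes (right, above and below the grey line); open symbols missed an adjusted p of 0.05. Lama5, Agrn, Col4a6 and Egfl6 lie left of 0 at both stages among mostly positive basement membrane genes, Vwa2 and Fermt1 lie farthest left among adhesion genes, and 11 of the 14 enzymes lie right of 0 with filled symbols at both stages.

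Over the 8 libraries, the mean standardised profile of the 9 genes correlated most closely, among the 11084 genes whose log2 CPM averaged 3 or more, with Wnk2 (Pearson r = 0.989), Trpv4 (0.987), Wnt10b (0.987), Dnajb2 (0.985), Frem2 (0.985) and Ugt1a6a (0.984). These values are descriptions over 8 points that share genotype, stage and library, with no test. Of the 9 genes, Lamb3 (0.963), Itgb4 (0.946), Lama3 (0.944), Col17a1 (0.941), Itga6 (0.913) and Col7a1 (0.858) followed the mean they are part of, whereas Cd151 (-0.201), Dst (-0.611) and Plec (-0.627) did not. The mean profile is led by the 6 genes that fell, so a lower level of the closest genes in knockout epidermis follows from how they were chosen, and their values are given as a description. Wnt10b, which encodes a secreted Wnt ligand, had 2.00 and 1.41 CPM in E15.5 knockout and 27.3 and 29.7 CPM in control libraries (log2 difference -4.07 ± 0.20). Frem2, of the Fraser complex, had 37.8 and 34.9 CPM in E15.5 knockout and 166.6 and 129.4 CPM in control libraries (-2.03 ± 0.18).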

How the data were processed

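Total RNA from the epidermis of 8 samples was sequenced. Per the submitters' processing notes, reads were aligned with TopHat2 (version 2) to mm10 and counted with HOMER. The values are whole-number read counts per RefSeq transcript, deposited by the authors without normalization. The sources used here do not give the counter's version, its strand setting or its treatment of reads that match several places. Reads of overlapping genes and near-identical copies are therefore uncertain.

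Of 30521 transcripts, 29908 took a name from RefSeq's table for GRCm38.p6 and 182 from GENCODE M21. The 431 without a name (2.079% of counts) entered neither library sizes nor tests. A gene was represented by its transcript with the largest total, and positions, exons and lengths come from the matching GENCODE M21 transcript (mm10). Joined tables with 8 columns of the same samples were not used.

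Tests used edgeR 4.0.16 (limma 3.58.1, R 4.3.3): filterByExpr (16342 genes kept), scaling by the trimmed mean of M values, and a quasi-likelihood fit with 1 mean per group over all 8 libraries. The p-values were adjusted by the Benjamini-Hochberg method across the genes kept, and an adjusted p under 0.05 was a call. Fold changes are on the log2 scale, and the SE of each is its absolute value over the square root of F. Levels are CPM on scaled library sizes, and errors of levels are SD (n = 2). The scripts were tested on simulated data. DESeq2 1.42.0, limma-voom, other scalings, filters, row sums, a replicate block and leaving out each library were alternatives.

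The 9 genes and the lists were chosen with earlier results of these data known. Beyond the 9 genes, the text names up to 3 called genes per pathway list and stage with the smallest adjusted p, and the 6 genes closest in profile. A gene of these lists is not reported here. Other genes, and comparisons between transcripts, partners and keratins, were chosen after their values were seen. Marker lists are of basal and suprabasal keratinocytes, periderm, dermal fibroblasts, skeletal muscle, endothelium, and Schwann, myeloid, melanocyte and erythroid cells. Nothing says that replicates came from separate embryos, so p-values cover only the spread between these samples, and that may be technical.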

Additional observations from a re-analysis of the deposited data

Results flagged for a closer look

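The knockout effect differed between stages for 2 named genes, by edgeR's test of the difference. Itga3, the alpha-3 integrin, was reduced less at E17.5 (-1.68) than at E15.5 (-2.41), a difference of 0.73 ± 0.17 (adjusted p = 0.038). The Itga3 call was lost without each of 6 libraries, all but the E17.5 control replicate 1 and the E17.5 knockout replicate 2, and its value then ran from 0.61 to 0.80. Wnt10b was likewise reduced less at E17.5 (-2.95) than at E15.5 (-4.07), a difference of 1.12 ± 0.28 (adjusted p = 0.044), and that call was lost without each of 6 libraries, all but the E15.5 knockout replicate 1 and the E17.5 knockout replicate 2 (0.86 to 1.18). Both calls were also lost with limma-voom (adjusted p = 0.054 for Itga3 and 0.099 for Wnt10b) and with library totals as the only scaling (0.13 and 0.072), and that of Wnt10b with counts summed over a gene's transcripts (0.054). Wnt10b was chosen for its likeness to the mean of the 9 genes over the same libraries.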

How the results depend on the processing

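The calls of the knockout comparisons for Itgb4, Col17a1, Lama3, Lamb3 and Col7a1 kept their direction and their side of the threshold under each alternative run, and Plec did so at E17.5. With library totals as the only scaling, Cd151 at E17.5 was -0.17, the difference between stages was -0.14 for Itga6, -0.18 for Itgb4 and -0.21 for Col7a1, and in control epidermis E17.5 against E15.5 was 0.06 for Itga6, 0.12 for Itgb4, 0.02 for Col17a1, 0.05 for Dst, 0.08 for Lama3 and 0.10 for Lamb3. None of these was a call. Under that scaling 142 genes were called higher and 655 lower for the difference, in place of 308 and 403, and 1486 and 762 between control stages, in place of 515 and 1259. DESeq2 called 507 genes higher for the difference and 1 of the 9 genes higher at E15.5 (Plec). For Col7a1, whose difference was 0.00, the sign turned with limma-voom (-0.003), no filter (-0.02), a stricter filter (-0.0006) and the replicate block (-0.003). Replicate numbers are shared by the groups only as numbers: deviations of same-numbered libraries correlated at 0.043 at E15.5 and -0.07 at E17.5. With the replicate block, 524 genes were called higher for the difference, Plec was called higher at E15.5 (1 of the 9 genes; 0.35, adjusted p = 0.039), and the call of Cd151 between control stages was lost (0 of the 9 genes; adjusted p = 0.062). Leaving out each library in turn gave 377 to 716 genes called for the difference (122 to 353 higher, 255 to 392 lower), 666 to 1776 between control stages (176 to 521 higher, 490 to 1255 lower) and 1160 to 2256 between knockout stages (451 to 1075 higher, 709 to 1181 lower). It gave 0 to 1 of the 9 genes higher at E15.5, 1 to 2 at E17.5 and 0 to 1 between control stages. Fold changes whose sign turned on leaving out a library were Cd151 (-0.07 to 0.17) and Tll1 (-0.21 to 0.14) at E17.5, for the difference Itga6 (-0.10 to 0.27), Itgb4 (-0.04 to 0.08), Col17a1 (-0.17 to 0.008), Lama3 (-0.32 to 0.04) and Col7a1 (-0.14 to 0.12), between control stages Itga6 (-0.33 to 0.04) and Lama3 (-0.29 to 0.05), and between knockout stages Itga6 (-0.21 to 0.06) and Itgb4 (-0.10 to 0.02). The cause of these changes was not tested. With 2 libraries a group, 1 library can decide a call, and a library left alone in its group is assumed to vary like the others. Depth limits little for the 9 genes, the lowest of which had 176 reads in a library.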
